A study of Mus musculus with 10 samples.

Results

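The genes described here were the very long genes, taken as autosomal protein-coding genes whose start and stop in the deposited tables lay more than 500 kb apart. Symbols beginning with Robo, Slit, Kcn, Col, Arhgap or Arhgef were set aside, which left out 8 genes. The rule used annotation only and no measured value. It gave 183 genes of the 18256 listed with a peak in either table, against 14004 other autosomal protein-coding genes up to that length. Of the 183, 176 had a peak of histone H4 monomethylated at lysine 20 (H4K20me1), 124 had a peak of RNA polymerase II phosphorylated at serine 2 (Pol II S2P), and 117 had both. A further 28 genes of the GENCODE M21 annotation met the rule with no peak listed in either table, so the 183 are those with signal and not every very long mouse gene.

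Both targets were mapped by CUT&RUN, in which a nuclease is brought to the antibody-bound target inside opened cells and the DNA it cuts free is sequenced. The cells were cultured muscle stem cells (MuSCs), the satellite cells of skeletal muscle, purified from adult mice on a C57BL/6 background. Ctrl cells were labelled Pax7CreERT/Suv4-20h1WT and sKO cells Pax7CreERT/Suv4-20h1KO. Suv4-20h1 is another name of Kmt5b, the methyltransferase gene that was deleted. Both genotypes carry Pax7CreERT, a tamoxifen-inducible Cre under the satellite cell gene Pax7, so the deletion concerns cells in which Pax7 was active when tamoxifen was given. Each genotype had 2 libraries for each antibody, and the 2 IgG libraries were not analysed here.

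As background, KMT5A places a single methyl group on lysine 20 of histone H4, and KMT5B and KMT5C add further methyl groups to it, so loss of KMT5B leaves more of the monomethyl form. H4K20me1 is known as a broad mark over the bodies of transcribed genes, and serine 2 phosphorylation marks polymerase that elongates. Very long genes take hours to transcribe, many of them encode neuronal adhesion molecules and receptors, and several coincide with common fragile sites, regions of chromosomes that tend to break when replication is slowed.

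The deposited value was a score, a normalised coverage per union peak, and a gene's score was the sum over the peaks listed with it. Levels between genes were compared as score per kb of gene. The Ctrl libraries summed to 15218720 and 20432644 for H4K20me1, the sKO libraries to 32194136 and 35046570, and the 4 Pol II S2P libraries to 3257665 at the least and 4885638 at the most. Very long genes made up 3.82% to 4.07% of all H4K20me1 score in a library and 1.73% to 1.89% of all Pol II S2P score. Of 10 satellite cell and myoblast markers, 8 were listed for H4K20me1 and 7 for Pol II S2P, with Pax7 in both and Cdh15 in neither. Markers of myofibres, fibro-adipogenic, endothelial, immune, Schwann and pericyte cells were also listed in part. Their summed Pol II S2P scores were 57 to 1368 per list and library, against 6449 to 9316 for the satellite cell list. Summed H4K20me1 scores were 515 to 5641 against 3742 to 11053. These lists held 3 to 6 markers against 10, so the sums are not like for like. The share of such cells in the values below was not tested. The deleted gene could not be checked, since no RNA was measured here and the H4K20me1 scores of Kmt5b (1332 and 1740 in Ctrl, then 1934 and 2196 in sKO) do not show whether it was cut.

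A limit of length is also a limit of annotation. Of the 181 members that RefSeq lists, 171 were over 500 kb there too and 10 were not. The 2 longest members were of the latter kind. Galnt2, which encodes an enzyme that starts O-linked glycans, spanned 4435 kb in the deposited tables and 114.3 kb in RefSeq, and Fgfr2, a fibroblast growth factor receptor, 2961 kb and 104.4 kb. Peaks of the genes that lie inside those spans were therefore credited to these 2 names. The longest members whose length RefSeq shares were Ptprd, a receptor tyrosine phosphatase of 2271 kb, Cntnap2, a neuronal adhesion gene of 2245 kb, and Lsamp, an adhesion gene of limbic neurons of 2197 kb. Just over the limit stood Edil3 at 501.8 kb, with 0.0578 H4K20me1 score per kb in Ctrl, Dock1 at 503.0 kb with 24.5, Ca10 at 503.7 kb with 0.217 and Stpg2 at 504.6 kb with 0.173. Just under it stood Dnm3 at 495.6 kb with 1.48, Cacna1e at 493.8 kb with 11.4, Abca13 at 492.3 kb with 0.204 and Gabrb1 at 490.9 kb with 0.652.

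H4K20me1 was sparse over most very long genes. In Ctrl the median member carried 1.84 and 2.52 score per kb of gene, and in sKO 4.48 and 5.29. Other autosomal protein-coding genes with a peak stood at 18.5 and 24.3 in Ctrl and at 43.9 and 47.6 in sKO. On the log2(score per kb + 0.1) scale the very long genes lay lower than the others by -3.24 ± 0.032 (SD, n = 2) in Ctrl and -3.20 ± 0.082 (SD, n = 2) in sKO. The genotypes did not differ in this distance beyond the spread of their libraries (exact permutation test, two-sided, p = 0.667, where 2 libraries against 2 cannot give less than 0.33).

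**Figure D1:**
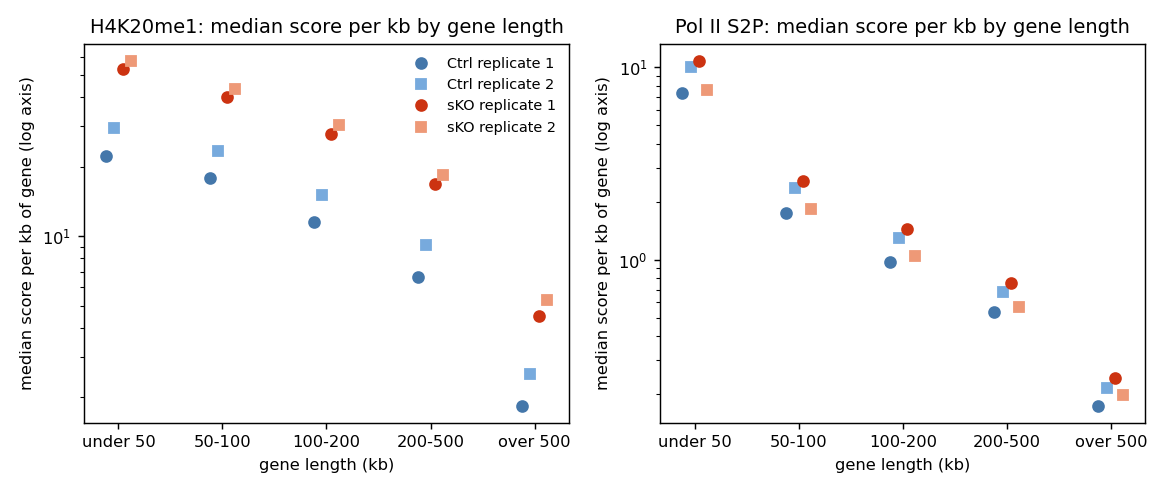
Median score per kb of gene (log axes) in 5 classes of gene length for H4K20me1 (left) and Pol II S2P (right), 1 point per library, over autosomal protein-coding genes with a peak listed in that table. Both levels fell from class to class in every library, and for H4K20me1 both sKO points lay above both Ctrl points in each class.

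The level fell with length throughout. In Ctrl, the mean of the library medians was 25.9 score per kb for genes under 50 kb, then 20.7, 13.3 and 7.90 in the classes between, and 2.18 over 500 kb. In sKO the shortest class had 55.4 and the longest 4.89, as the plot by length class shows. What changed with length was how much of the gene lay in peaks. H4K20me1 peaks covered a median of 85.5% of genes under 50 kb, 37.7% of genes of 200 to 500 kb and 10.1% of very long genes. Within peaks the score per kb of peak was nearly flat, with medians of 24.6, 22.3 and 20.9 in Ctrl and of 51.6, 48.7 and 46.6 in sKO. A short gene enters these classes only if a peak lies on it, so its covered share is high by selection.

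The members differed widely among themselves. Their mean scores per kb spanned 837-fold, 16 had more than 50% of their length in H4K20me1 peaks, and 28 had less than 1%. The highest level was in Pard3, a cell polarity scaffold of 548.4 kb, which scored 14258 and 19035 in Ctrl, then 24579 and 26339 in sKO, with 89.2% of the gene in peaks. By the mean of the 4 libraries it was followed by Camta1, a calmodulin-binding transcription activator (25.6 score per kb in Ctrl and 40.1 in sKO), Dock1, an activator of Rac (24.5 and 41.9), Tenm4, a teneurin adhesion receptor (19.7 and 44.8), and Kalrn, a guanine nucleotide exchange factor (23.4 and 40.4). In all 5 the sKO libraries lay above the Ctrl libraries on the deposited scale. At the same total per library the fold change of Pard3, Camta1, Dock1 and Kalrn turned to -0.30, -0.27, -0.14 and -0.12, and that of Tenm4 was 0.27. At the other end were Sgcz, a sarcoglycan gene of 1139 kb whose single peak scored 31 and 98 in Ctrl and 48 and 32 in sKO, Ctnna2, a neuronal catenin gene (36 and 108, then 84 and 79), and Sntg1, a syntrophin gene (48 and 111, then 48 and 59). In these 3 the genotypes overlapped.

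**Figure D2:**
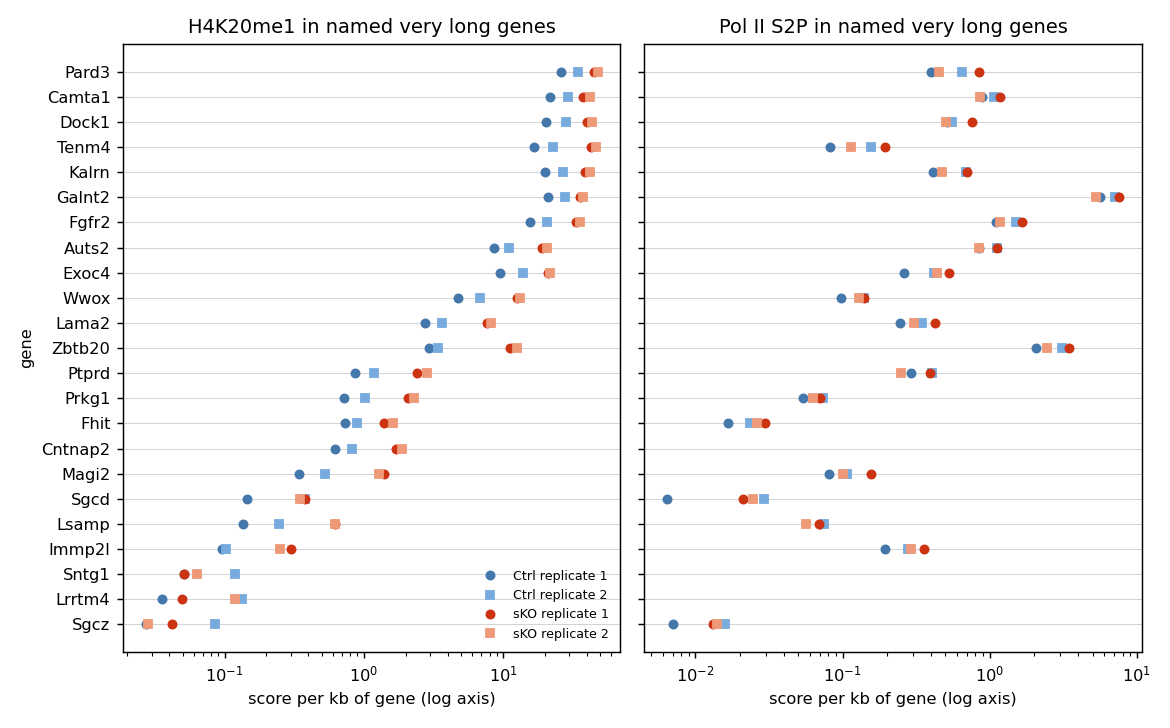
Score per kb of gene (log axes) in every library for named very long genes, H4K20me1 on the left and Pol II S2P on the right, with a gap where no peak was listed. The sKO mean of H4K20me1 runs from 46.4 per kb for Pard3 down to 0.0351 for Sgcz, with single libraries on either side of it. The genotypes separate in every row of the left panel except Sgcd, Sntg1, Lrrtm4 and Sgcz but mix in most rows of the right panel.

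After loss of KMT5B, H4K20me1 rose in nearly all very long genes. Called were genes with a Benjamini-Hochberg adjusted p under 0.1 in limma on log2(score + 1) and a log2 fold change past 0.5. Of the 176 members, all tested, 165 were called higher in sKO and 0 lower, which is 93.8%, beside 92.3% called higher and 0.0% lower among all 13750 genes tested. At an unadjusted p under 0.05 there were 161 members higher, beside 90.3% of all genes, and 0 lower. Their median log2 fold change was 1.17, with the middle of the members between 0.92 and 1.38 (quartiles), against 1.11 over all genes tested. In 164 members both sKO libraries were above both Ctrl libraries, beside 96.5% of all genes tested, and in 0 members both were below, beside 0.0364%. The rise in very long genes less that in other protein-coding genes was 0.0653 on the log2 scale (per library -0.0478 and 0.0478 in Ctrl, 0.0396 and 0.0909 in sKO; exact permutation test, two-sided, p = 0.667). Against genes of 200 to 500 kb it was 0.00374 (p = 1.0 in the same exact test). In both the genotypes overlapped on the deposited scale. The first difference was 0.21 after quantile normalisation, where the genotypes did not overlap (exact permutation p = 0.33), 0.122 without Ctrl replicate 2 and 0.023 without Ctrl replicate 1. The count rests on the scale between libraries and on few libraries. With all libraries set to the same total, the median change over all genes was 0.18 in place of 1.11, and 38 members (21.6%) were called higher and 6 (3.41%) lower, beside 24.0% and 4.31% of all genes. At the same total over autosomal peaks 28 (15.9%) were higher and 6 (3.41%) lower, beside 20.8% and 5.69%. After quantile normalisation 33 (18.8%) were higher and 13 (7.39%) lower, beside 10.3% and 11.1%. Among these rescalings, the share of members called higher lay above that of all genes after quantile normalisation only. That difference was not tested. The count also fell when either sKO library was left out, where the lone sKO library is taken to vary like the Ctrl pair. The share of all genes called was not counted in those fits.

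**Figure D3:**
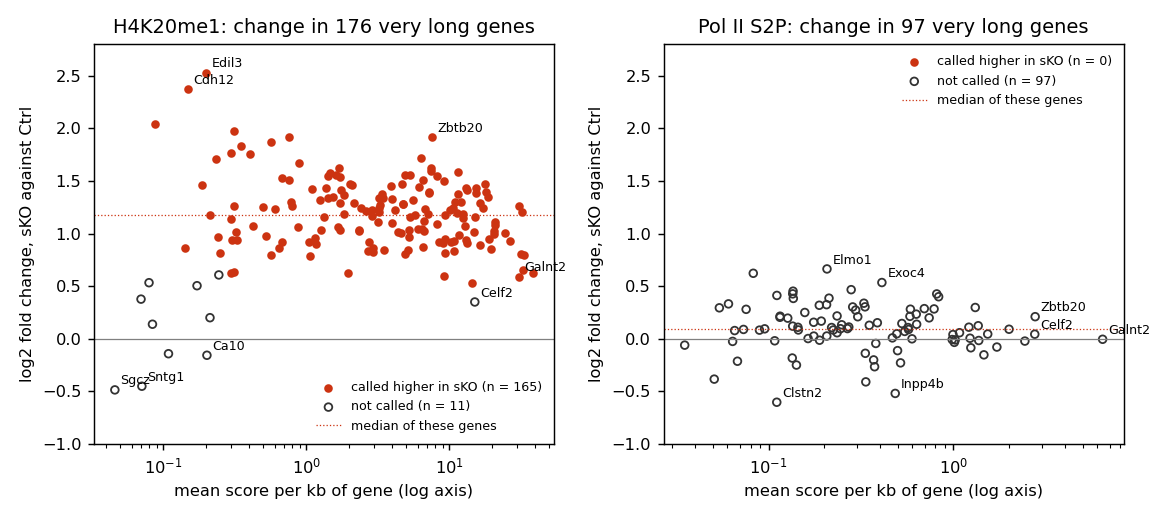
Log2 fold change of sKO against Ctrl by mean score per kb of gene (log axis) for each tested very long gene, H4K20me1 (left, n = 176) and Pol II S2P (right, n = 97), filled where called, with the median of the plotted genes as a dotted line. For H4K20me1 the 11 genes not called carry 1 or 2 weak peaks apart from Celf2, and for Pol II S2P the points scatter around a median of 0.10 with none called.

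Most of the largest rises were in genes with little mark in Ctrl, and the Ctrl score is also the divisor of the fold change. Edil3, which encodes a secreted integrin ligand, scored 33 and 25 in Ctrl and 165 and 176 in sKO (log2 fold change 2.53 ± 0.51 SE, limma adjusted p = 2.93e-06). Cdh12, a neuronal cadherin, went from 45 and 63 to 220 and 354 (2.37 ± 0.40, limma adjusted p = 2.49e-08). Sugct, a mitochondrial CoA transferase gene, and Ccser1, a coiled-coil gene at a common fragile site, rose by 2.04 and 1.97. Each of these 4 rested on 1 or 2 peaks. Zbtb20, a zinc finger repressor, had 18 peaks and went from 2268 and 2623 to 8680 and 9758 (1.92 ± 0.29, limma adjusted p = 5.67e-10), and the 2 groups stood far apart.

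Like most of the genes with the largest rises, the 11 genes that were not called had 1 or 2 weak peaks each, apart from 1 gene. They were Sgcz (-0.49 ± 0.63), Sntg1 (-0.45 ± 0.54), Ca10, Grm7, Lrrtm4, Adgrb3, Ctnna2, Pcdh15, Dcc and Grm5. Grm5 and Grm7 are glutamate receptors, Lrrtm4 and Adgrb3 synaptic surface proteins, Dcc an axon guidance receptor, Pcdh15 a protocadherin of hair cells and Ca10 a carbonic anhydrase-related protein of the brain. The Ctrl libraries stood apart in these genes, as in Grm7 with 71 and 144 against 109 and 77 in sKO, and the genotypes overlapped. The exception was Celf2, an RNA-binding splicing regulator of 969.9 kb with 13 peaks, which scored 10676 and 15285, then 15656 and 16929. Its sKO libraries were above its Ctrl libraries, and its change was small (0.35 ± 0.30, limma adjusted p = 0.249). With libraries at equal totals Celf2 was called lower by -0.58 (limma adjusted p = 2.1e-21). Split into 4 groups of 44 by level, members had median changes of 1.08 in the highest group, 1.18 and 1.24 in the groups below and 1.04 in the lowest, where single genes spanned -0.49 to 2.53.

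By role, most measured members of each list were called higher, beside the 92.3% of all genes. All 24 measured kinase, phosphodiesterase and lipid signalling genes were called higher (median log2 fold change 1.32), all 12 cytoskeleton and motor genes (1.24), all 6 receptor tyrosine phosphatase genes (1.04) and 15 of 16 transcription factor, chromatin and RNA-binding genes (1.29), Celf2 being the exception. Among synaptic and neuronal adhesion genes 25 of 29 were called (1.07), among receptors and ion channels 10 of 12 (0.96) and among cadherins and catenins 4 of 5 (1.07). At equal totals the calls were 7 of 24 higher for the kinase list, 1 of 12 for the cytoskeleton list, 0 of 6 for the phosphatases, 4 of 16 for the transcription factor list, 6 of 29 for adhesion genes, 1 of 12 for receptors and channels and 2 of 5 for cadherins, beside 24.0% of all genes tested. Called lower at equal totals were 1 adhesion gene (Adgrb3), 1 receptor gene (Grm7) and 1 gene of the transcription factor list (Celf2), beside 4.31%. The median Ctrl score per kb was 8.68 for cytoskeleton and motor genes, led by Nav2, a neuron navigator with 18.2, and 4.03 for transcription factor and chromatin genes, whereas it was 0.814 for adhesion genes and 0.581 for cadherins and catenins. The highest members of the other lists were Ptprg, a phosphatase (14.1 in Ctrl and 25.2 in sKO), Cacna1c, the pore of a voltage-gated calcium channel (13.9 and 27.4), and Cdh13, a cadherin without a transmembrane segment (11.8 and 16.8). Sox6, a regulator of muscle fibre type, went from 4663 and 6102 to 13890 and 15635 (1.47 ± 0.29, limma adjusted p = 2.5e-06) and rose at equal totals as well, by 0.54.

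The muscle membrane list held 7 members, of which 5 were called higher (median log2 fold change 0.63), beside 92.3% of all genes tested. At equal totals 2 were called higher and 2 lower, beside 24.0% and 4.31%. Lama2, the laminin chain of the muscle basement membrane, rose from 1775 and 2339 to 4891 and 5277 (1.32 ± 0.28, limma adjusted p = 9.63e-06), and the genotypes did not overlap. At equal totals its change was 0.39 and it was not called. Ank2, an ankyrin, went from 2995 and 3724 to 10186 and 9806 and was called higher as well. Ank3, a further ankyrin, was called as well (limma adjusted p = 8.72e-07). Sgcd, the delta-sarcoglycan gene, scored 160 and 412, then 414 and 383. It was called higher (0.63 ± 0.29, limma adjusted p = 0.0329), although Ctrl replicate 2 lay within the sKO values, and without Ctrl replicate 1 the change was -0.05. Sgcz and Sntg1 were the 2 not called. They were also the 2 called lower at equal totals, by -1.39 and -1.36, on weak scores whose genotypes overlapped as deposited.

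All 25 measured genes of a list of common fragile site genes were called higher (6 of 25 at equal totals), beside 92.3% and 24.0% of all genes tested. Their median log2 fold change was 1.24 and their median Ctrl level 1.07 score per kb. The list was drawn up by gene symbol, and no fragile site was mapped in these cells. Fhit, a diadenosine hydrolase gene at the best known such site, scored 1175 and 1447, then 2262 and 2615 (0.90 ± 0.27, limma adjusted p = 0.00158), a rise that was -0.03 at equal totals. Wwox, an oxidoreductase gene, carried more of the mark and went from 4368 and 6201 to 11554 and 12011 (1.18 ± 0.29, limma adjusted p = 0.000117). Magi2, a synaptic scaffold, rose from 0.433 to 1.35 score per kb, Immp2l, a mitochondrial peptidase subunit, from 0.0988 to 0.275, and Auts2, a chromatin-associated factor, from 9.87 to 19.8. In each of these the sKO libraries exceeded the Ctrl libraries. At equal totals the changes were 0.25 in Wwox and 0.09 in Auts2, neither called, and 0.74 in Magi2 and 0.54 in Immp2l, both called. Prkg1, a cGMP-dependent kinase gene outside this list, rose from 0.872 to 2.19. Its change at equal totals was 0.42, and it was not called there. Pcdha4, a clustered protocadherin, scored 252 and 372, then 800 and 984.

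Each member was cut into 10 equal parts from start to end and a peak's score spread evenly over the peak. With each gene weighted alike, the first part held 22.0% and 21.8% of a member's H4K20me1 in Ctrl and 21.4% in both sKO libraries, the second part between 6.15% and 6.39%, and the last part between 14.2% and 14.8%. In genes of 200 to 500 kb the first part held a mean of 15.1%. Weighted by score, the first part of very long genes held 13.4% ± 0.11 (SD, n = 2) in Ctrl and 12.3% ± 0.095 in sKO, and the last part 12.5% and 13.2%. The genotypes did not overlap in either, with an exact permutation p of 0.33, the smallest the design allows. By distance, the first kb of the 176 genes carried 7.71 score per kb in Ctrl and the next 9 kb 9.67, after which the level was between 3.69 and 5.41. A peak reached the first kb in 70 of the 176.

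**Figure D4:**
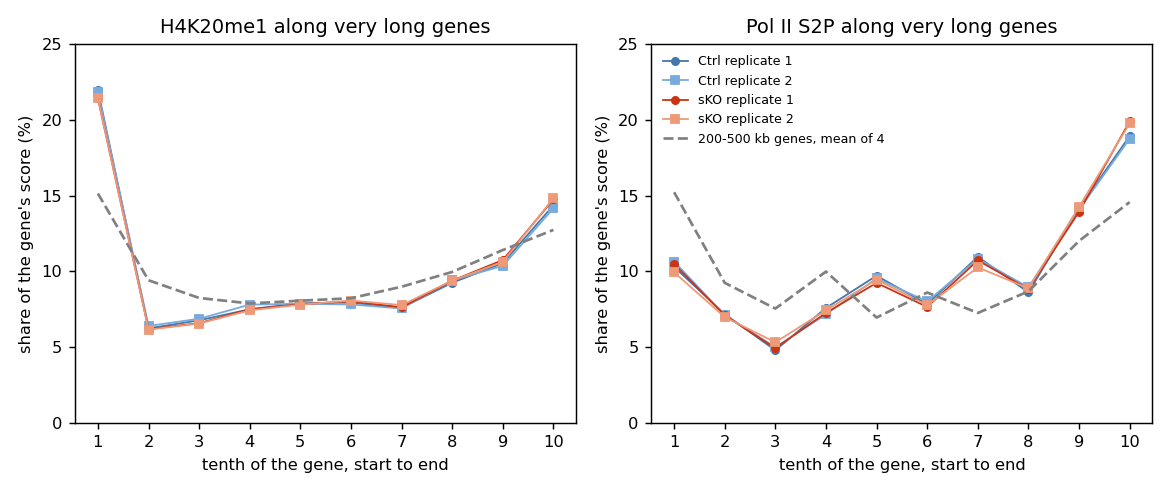
Share of a gene's score in each of 10 equal parts from start to end, each gene weighted alike, for H4K20me1 (left) and Pol II S2P (right), 1 line per library, with the mean of the 4 libraries in genes of 200 to 500 kb as a dashed line. The H4K20me1 lines start at 21.4% to 22.0%, and the Pol II S2P lines end at 18.7% to 19.9%, with Ctrl and sKO close to each other throughout.

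Pol II S2P was also lower per kb in very long genes than in other genes. The median member with a Pol II S2P peak had 0.175 and 0.216 score per kb in Ctrl, then 0.244 and 0.198 in sKO, against 4.28 and 5.81, then 6.22 and 4.46, in other protein-coding genes with a peak. On the log2(score per kb + 0.1) scale the very long genes lay lower by -4.11 ± 0.17 (SD, n = 2) in Ctrl and -4.07 ± 0.19 in sKO, and the genotypes overlapped (exact permutation p = 0.667). Peaks covered a median of 0.174% of these genes and 4.82% of genes under 50 kb. The score per kb of peak was 114 in Ctrl and 128 in sKO, close to the 133 and 147 of genes under 50 kb. Galnt2, with its 357 peaks over the long gene model, stood highest with 24959 and 31766, then 33582 and 23466. Among members long in RefSeq too, Celf2 (2.76 score per kb in Ctrl and 2.74 in sKO), Zbtb20 (2.58 and 2.96), Pde4d, a cAMP phosphodiesterase (2.45 and 2.42), and Frmd4a, a scaffold of epithelial polarity (1.94 and 2.06), were highest. Sgcz (0.0114 and 0.0136), Sgcd (0.0178 and 0.0229) and Cdh18, a cadherin listed for Pol II S2P alone (0.0249 and 0.0211), were lowest.

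Few very long genes had a Pol II S2P peak at the start. Of the 124 with any peak, 14 had one of their own within 1 kb of the annotated start, which is 11.3%, beside 105 of 501 genes of 200 to 500 kb and 59.7% of all other protein-coding genes with a peak. Because a long gene can start from several sites, the RefSeq promoter windows (GRCm38.p6, 250 bases before to 50 after each start) were also used. They matched 138 members by symbol, with 222 windows. A Pol II S2P peak overlapped a window in 15 of these genes, or 10.9%, against 21.8% of genes of 200 to 500 kb and 48.7% of all others. H4K20me1 peaks overlapped a window in 59 of the 138, or 42.8%, against 55.0% and 58.2%. CG pairs were a median of 25 per window in the 17 windows of very long genes with a Pol II S2P peak and 12 in the 205 without. The same split gave 23 and 14 in genes of 200 to 500 kb and 22 and 13 in all other protein-coding genes. Over all their windows the medians were 12 for very long genes, 17 for genes of 200 to 500 kb and 19 for the others, and 7 for all 32851 RefSeq windows. TATAAA, searched on both strands, was in 9.91% of the 222 windows, 7.81% and 7.95% of the windows of the 2 comparison groups and 13.6% of all RefSeq windows.

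The 250 bases before the start are shown for the 3 members with the strongest Pol II S2P peak over a window. They are also shown for 2 members with no Pol II S2P peak listed, the 2 with the most H4K20me1 per kb among those. This sets promoters with and without a listed Pol II S2P peak side by side. The antibody detects polymerase phosphorylated at serine 2, so a missing peak does not show a promoter free of polymerase. Sequences are from RefSeq, build GRCm38.p6, 5′ to 3′ on the gene's strand, with CG pairs in capitals. The windows are chr4:151861769-151862018 (minus strand), chr13:17694766-17695015 (minus), chr2:4559504-4559753 (plus), chr6:93912964-93913213 (minus) and chr3:56183702-56183951 (minus), in the order of the lines.
Camta1: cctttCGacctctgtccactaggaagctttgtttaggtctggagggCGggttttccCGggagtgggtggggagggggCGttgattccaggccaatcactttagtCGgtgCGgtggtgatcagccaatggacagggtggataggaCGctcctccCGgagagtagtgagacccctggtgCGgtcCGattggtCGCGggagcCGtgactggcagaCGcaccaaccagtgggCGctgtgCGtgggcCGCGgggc
Sugct: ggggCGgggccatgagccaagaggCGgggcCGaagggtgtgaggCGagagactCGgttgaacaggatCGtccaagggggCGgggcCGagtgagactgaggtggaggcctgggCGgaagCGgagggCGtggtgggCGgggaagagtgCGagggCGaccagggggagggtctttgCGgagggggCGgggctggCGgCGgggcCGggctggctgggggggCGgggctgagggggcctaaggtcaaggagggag
Frmd4a: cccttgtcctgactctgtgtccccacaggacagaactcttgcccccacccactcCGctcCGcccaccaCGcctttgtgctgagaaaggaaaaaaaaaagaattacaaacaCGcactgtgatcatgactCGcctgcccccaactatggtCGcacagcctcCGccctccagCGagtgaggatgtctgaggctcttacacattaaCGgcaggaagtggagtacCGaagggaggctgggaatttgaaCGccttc
Magi1: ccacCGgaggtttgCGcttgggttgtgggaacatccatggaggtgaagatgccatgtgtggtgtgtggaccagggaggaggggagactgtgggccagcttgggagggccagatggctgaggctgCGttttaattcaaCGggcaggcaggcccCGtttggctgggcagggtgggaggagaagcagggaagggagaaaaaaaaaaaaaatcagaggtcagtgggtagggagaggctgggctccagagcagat
Nbea: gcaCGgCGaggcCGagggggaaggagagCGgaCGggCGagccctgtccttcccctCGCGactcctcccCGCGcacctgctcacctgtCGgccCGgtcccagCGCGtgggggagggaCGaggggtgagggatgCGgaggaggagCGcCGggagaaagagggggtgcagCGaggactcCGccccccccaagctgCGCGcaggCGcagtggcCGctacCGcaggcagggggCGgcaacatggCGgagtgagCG

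Camta1 held 18 CG pairs in the stretch shown, and the peak over its window scored 256 and 324 in Ctrl and 327 and 196 in sKO. Sugct held 20, with 91 and 165, then 157 and 106, and Frmd4a held 11, with 120 and 115, then 145 and 99. In all 3 the genotypes overlapped. The Frmd4a stretch precedes the most downstream of the RefSeq starts matched to that gene. The windows of its upstream starts had no Pol II S2P peak. Magi1, a junction scaffold, held 5 CG pairs. Nbea, a vesicle trafficking gene at a common fragile site, held 28, more than any of the other 4, with no Pol II S2P peak listed on the gene. No stretch held TATAAA on either strand.

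Pol II S2P lay mostly inside these genes. With each gene weighted alike, the last of the 10 parts held 18.9% and 18.7% of a member's score in Ctrl and 19.9% and 19.8% in sKO, and the first part between 9.93% and 10.6%. In genes of 200 to 500 kb the last part held 14.4% in Ctrl and 14.7% in sKO and the first between 14.9% and 15.4%. The last part was higher in both sKO than in both Ctrl libraries, with an exact permutation p of 0.33. Weighted by score, the last part held 12.8% ± 0.70 (SD, n = 2) in Ctrl and 13.8% ± 0.37 in sKO, and the part before it between 14.2% and 14.6%. By distance, the first kb carried 4.64 score per kb in Ctrl, the stretch from 1 to 10 kb 0.336, the stretches up to 500 kb between 0.300 and 0.401, and the stretch beyond 500 kb 0.968. That last value was 0.481 over the members that are also long in RefSeq, so members with a long model in one annotation only held much of it. Of the 1182 Pol II S2P peaks of very long genes, 708 (59.9%) overlapped an H4K20me1 peak, while H4K20me1 peaks covered 17.3% of these genes' bases. Over members long in RefSeq it was 46.2% beside 14.4%, and over genes of 200 to 500 kb 61.8% beside 37.2%.

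No change of Pol II S2P in very long genes passed the test. Of 97 members tested, 0 were called higher and 0 lower by limma, beside 0.0% of all 8531 genes tested in either direction. The study itself reports raised Pol II S2P over many genes, from DESeq2 on coverage of whole genes. That measure is unlike the sums over listed peaks used here, so the results are not like for like. At an unadjusted p under 0.05 there were 0 members, against 95 genes higher (1.11%) and 5 lower (0.0586%) over the whole table. The median log2 fold change was 0.10 in members and 0.09 in all genes tested. The sKO libraries themselves differed, with median changes from the Ctrl mean of 0.296 and -0.111 in very long genes, so their spread exceeded the median. Change in very long genes less that in others was -0.000103 on the log2 scale (exact permutation p = 1.0). In 10 members the sKO pair lay wholly above the Ctrl pair and in 4 wholly below, which is 10.3% and 4.12%, beside 9.41% and 4.52% of all genes tested.

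Several of these 14 are given as values, none of which passed the test. Elmo1, a partner of Dock1 in Rac activation, scored 86 and 79 in Ctrl and 147 and 117 in sKO (0.66 ± 0.42, limma adjusted p = 1.0). Exoc4, an exocyst subunit at a common fragile site, scored 190 and 302, then 382 and 316 (0.53 ± 0.42), and Immp2l 182 and 258, then 333 and 270 (0.47 ± 0.41). Plcb1, a phospholipase, and Mecom, a zinc finger transcription factor, had 0.62 and 0.45. On the lower side Clstn2, a synaptic calsyntenin, scored 70 and 86, then 66 and 39 (-0.60 ± 0.49), Ryr3, a calcium release channel, 204 and 246, then 171 and 166 (-0.41 ± 0.41), and Nrxn3, a neurexin, 86 and 100, then 75 and 67. Inpp4b, an inositol phosphatase, scored 364 and 533, then 370 and 255 (-0.52 ± 0.42), and its genotypes overlapped. When libraries were set to the same total, Inpp4b was the single member called lower (-0.66, limma adjusted p = 0.0126) and 0 were called higher, beside 0.855% lower and 1.26% higher among all genes. Quantile normalisation gave the same counts beside 0.34% and 1.31%. H4K20me1 on Inpp4b went from 163 and 217 to 586 and 816 (1.87 ± 0.28). Thsd4, an extracellular matrix gene, scored 205 and 249, then 210 and 168, and these overlapped.

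H4K20me1 was higher in very long genes that also had a Pol II S2P peak. The 117 with both had a median of 3.07 and 4.22 H4K20me1 score per kb in Ctrl and of 8.02 and 9.04 in sKO, and the 59 with no Pol II S2P peak listed had 0.618 and 0.870, then 1.52 and 1.67. On the log2(score per kb + 0.1) scale the distance between the groups of genes was 2.15 ± 0.0084 (SD, n = 2) in Ctrl and 2.35 ± 0.033 in sKO, and it was above 2.1 in all 4 libraries. The change in sKO less Ctrl was 1.21 with a peak and 1.05 without, a difference of 0.159 whose libraries did not overlap between genotypes (exact permutation p = 0.33, the smallest possible). Without Ctrl replicate 2 the difference was 0.0436. With a peak near the start in place of any peak it was -0.157, so its direction rests on the definition. Across the 4 groups of 44 genes by H4K20me1 level, a Pol II S2P peak was listed in 40.9% of the lowest, then 54.5%, 79.5% and 90.9%. Both readouts share the gene and its length, and this order is a description.

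**Figure D5:**
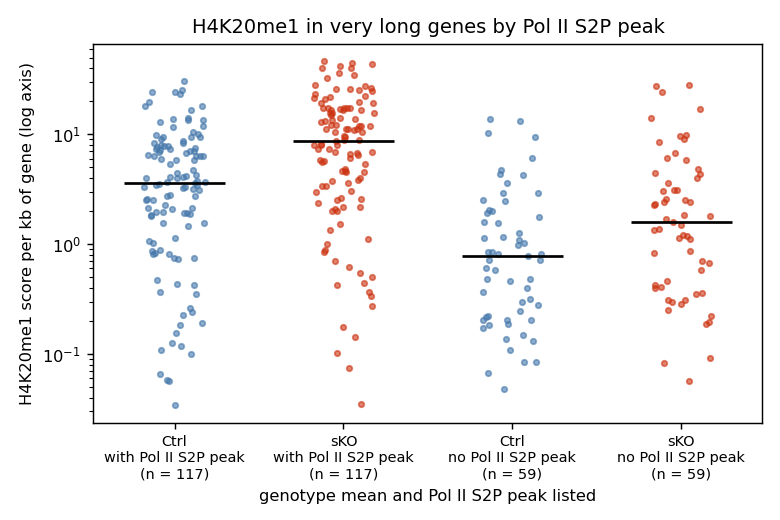
H4K20me1 score per kb of gene (log axis) as the mean of the Ctrl or of the sKO libraries, 1 point per very long gene, for the 117 genes with a Pol II S2P peak and the 59 without, with the median as a black line. The points with a peak lie higher in both genotypes, and the groups overlap over most of their range.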

How the data were processed

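The authors trimmed reads with Trimmomatic 0.39, aligned them to mm10 (GRCm38, Ensembl release 99) with STAR 2.7.3a, retained reads with a unique alignment and took out duplicates with Picard 2.21.7. FastQC 0.11.8, SICER 0.0.41 and MACS2 2.1.1 are also named in the submitters' processing notes. The deposited score is a whole number per union peak and library, described as coverage normalised by spike-in (S2 cell DNA per the labels) and not divided by peak length, and the deposited fraction is the share of a peak inside its listed gene. Read depth is not known from such scores, so no counting interval is given, and whether the scale follows the spike-in was not checked. The study's methods name DESeq2, which was not used because the values are not raw counts.

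Gene scores were sums over listed peaks. Genotypes were compared over all autosomal genes with a mean score over 50 by limma 3.58.1 in R 4.3.3 (eBayes with a mean-variance trend) on log2(score + 1), where low scores understate changes. A call needed a log2 fold change past 0.5 and an adjusted p (Benjamini-Hochberg) under 0.1. Medians and shares per library were compared by an exact two-sided permutation test. The study states 2 biological replicates, and p-values rest on the spread between these libraries. In limma each gene's variance is drawn towards a trend over all genes. A small limma p therefore does not measure the spread of that gene's own libraries alone. The limma script was tested on simulated data. Genes of overlapping models share peaks that are credited to 1 of them.

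Members, role lists and marker lists were chosen with earlier results of these data known. Named genes were the 5 longest members, for each antibody the 5 highest and 3 lowest levels and the 5 highest and 5 lowest fold changes, the highest level in each role list, and 10 further chosen genes with Kmt5b. Magi1, Pcdha4, Ank3, the further genes not called and the threshold neighbours were named after their values were seen. Some genes that the rule names are not reported here. Alternatives were other scalings, pseudocounts and filters, peaks credited by position, a replicate block and leaving out each library. Python 3.11.15, numpy 2.4.6 and pandas 2.3.3 were used.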

Additional observations from a re-analysis of the deposited data

Results flagged for a closer look

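Very long genes of the X chromosome lay outside every comparison above, since the study set aside X and Y. The 11 listed X-linked protein-coding genes over 500 kb each had H4K20me1 peaks, at a median of 13.6 and 17.9 score per kb in Ctrl (mean 15.7) and 21.6 and 23.5 in sKO, against 2.18 and 4.89 for the means of the autosomal medians. Dmd, the dystrophin gene of 2257 kb, scored 56778 and 76761 in Ctrl and 80577 and 91400 in sKO, and Il1rapl1, a synaptic receptor gene, 33597 and 45851, then 40561 and 46092. The log2 ratio of the sKO mean to the Ctrl mean was 0.36 in the median X-linked gene, with a range of 0.06 to 0.58, beside 1.16 in the median autosomal member by the same ratio. In 7 of the 11 the sKO pair lay wholly above the Ctrl pair. The 11 include Arhgap6, a member of a family that was set aside among the autosomal genes. Without it the 10 others had medians of 11.5 and 15.8 score per kb in Ctrl, then 18.7 and 20.6 in sKO, a median log2 ratio of 0.36, and 6 genes with the sKO pair wholly above. None of the 11 had a Pol II S2P peak listed (0 of 11). These values are a signal in data that no comparison used, and the difference from autosomal genes was not tested.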

How the results depend on the processing

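Scale between libraries mattered most. In place of 165, the H4K20me1 calls higher numbered 38 at equal totals, 28 at equal autosomal totals (an alternative chosen after seeing the data) and 33 after quantile normalisation, where 6, 6 and 13 members were called lower. Leaving out 1 library gave 41 to 171 calls higher and 0 to 4 lower. With the replicate block 166 were called higher and 0 lower, and for Pol II S2P 0. The share of all genes called was not counted with a library left out or with the block. Those counts therefore cannot show whether a shift concerned very long genes or the whole table. Replicate numbers did not pair the libraries (correlation of deviations 0.0407 for H4K20me1 and -0.0428 for Pol II S2P). For Pol II S2P 1 member was called lower at equal totals, equal autosomal totals and after quantile normalisation, and 0 in every other setting.

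At equal totals, equal autosomal totals and after quantile normalisation in turn, the H4K20me1 change turned to -0.54, -0.59 and -1.14 in Ctnna2, -0.30, -0.35 and -0.66 in Sgcd, -0.58, -0.63 and -0.41 in Celf2, -0.77, -0.82 and -1.61 in Lrrtm4, -0.03, -0.08 and -0.09 in Fhit and -0.30, -0.36 and -0.21 in Pard3. At both equal totals it turned to -0.34 and -0.39 in Galnt2, -0.01 and -0.06 in Pde4d, -0.27 and -0.32 in Camta1, -0.04 and -0.10 in Exoc4, -0.12 and -0.18 in Kalrn, and -0.14 and -0.19 in Dock1, and at equal autosomal totals to -0.05 in Fgfr2. Without 1 library it ranged from -0.40 to 1.16 in Ctnna2, -0.05 to 1.31 in Sgcd, -1.05 to 0.15 in Sntg1, -0.65 to 0.36 in Grm7, -0.80 to 1.08 in Lrrtm4 and -0.67 to 0.35 in Ca10. The cause was not tested beyond the rescaling itself.

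The H4K20me1 level of very long genes less others (main -3.22) was -2.90 with a pseudocount of 1 per kb, -3.06 with peaks by position, -3.34 over members long in RefSeq and -3.25 to -3.21 without 1 library, and that of Pol II S2P (main -4.09) was -2.35 with that pseudocount, -3.75 by position and -4.14 to -4.04 without 1 library. The H4K20me1 change less others (main 0.0653) was 0.21 after quantile normalisation, 0.102 by position and 0.023 to 0.122 without 1 library. The Pol II S2P change less others (main -0.000103) was 0.0199 after quantile normalisation, 0.000799 with a pseudocount of 10, 0.00564 by position, 0.012 over members long in RefSeq and -0.0265 to 0.0272 without 1 library. The share of H4K20me1 in the first part (main 12.8%) was 21.7% with equal weights, 12.4% over members long in RefSeq and 12.6% to 13.0% without 1 library, and that of Pol II S2P (main 11.7%) 10.3%, 8.41% and 11.5% to 11.8%. Its Pol II S2P difference in sKO less Ctrl was -0.81 to 0.0706 without 1 library. The H4K20me1 distance between members with and without a Pol II S2P peak (main 2.25) was 1.5 with a peak near the start, 2.47 by position and 2.21 to 2.28 without 1 library, and its change (main 0.159) -0.157 with a peak near the start and 0.0436 to 0.227 without 1 library. With 2 libraries per group no library-level test can give a p under 0.33, and genes with scores under about 100 were set by 1 or 2 peaks.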
